A study of Mus musculus with 4 samples.

Results

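The 10 genes described here encode proteins of the Bcl2 family, which sets whether a cell commits to apoptosis at the mitochondrion. They were chosen by gene symbol from the deposited feature lists, and all 10 were found among 32285 gene features: Bcl2, Bcl2l1, Mcl1, Bax, Bak1, Bcl2l11, Bbc3, Pmaip1, Bid and Bad. RNA and a panel of surface antibodies were read from single mouse bone marrow cells positive for CD45.2 and Kit, 10 weeks after transplantation. The 4 groups, of 1 library each, were control, "Mll3 deleted", "Mll4 deleted" and deletion of both ("Mll3/4 deleted"), and the labels give no strain, no driver of the deletion and no number of animals. Mll3 and Mll4 are the histone methyltransferases encoded by Kmt2c and Kmt2d, and the title of the series asks how far they stand in for each other in stem cell, myeloid and B-cell identity. The groups are called by their labels below, since the level of Kmt2d did not separate them.

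Family members are grouped by role. Bcl2, Bcl2l1 (which encodes Bcl-xL) and Mcl1 bind and hold back the pro-apoptotic proteins. Bax and Bak1 are the effectors that permeabilise the outer mitochondrial membrane. Bcl2l11 (Bim), Bbc3 (Puma), Pmaip1 (Noxa), Bid and Bad share only the BH3 domain and relay death signals by binding the others. In developing blood cells Mcl1 is required for stem cell survival, Bcl2l1 for survival of late erythroid cells and B-cell precursors, and Bim limits the number of lymphocytes.

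The deposited matrices held 174795636 (control), 161119914 (Mll3-labelled), 36413830 (Mll4-labelled) and 86721050 (Mll3/4-labelled) gene UMIs. After filtering, 7146, 5860, 5350 and 6917 cells were kept in that order, with medians of 15754, 16963.5, 5142 and 9965 UMIs. Any pair of libraries shared 9 to 24 cell barcodes, at most 0.29% of the smaller library. Kmt2c stood at 47.9, 27.2, 59.2 and 34.8 counts per 1000000 UMIs (CPM) in the same order. Kmt2d stood at 25.8, 21.6, 25.0 and 24.8 CPM. These are 3′ counts, and the labels do not say which part of either gene was removed, so an unchanged level does not check a deletion. Xist was at 990, 955, 0.519 and 1839 CPM, so the Mll4-labelled library also differed from the other 3 in this X-linked RNA of female cells, and its lower depth and this difference cannot be told apart from the deletion.

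Cells fell into 9 classes named from marker genes. A further cluster of 119 cells, 107 of them Mll4-labelled, was left unnamed and is in none of the classes. The Mll3/4-labelled library held 6831 B-cell progenitor-like cells among its 6917 kept cells and 2 to 23 cells of each other class, so it could be compared with control in B-cell progenitor-like cells alone. That class held 508 control cells, 608 Mll3-labelled cells and 154 Mll4-labelled cells, and its B-cell markers summed to 14690, 11850, 9507 and 12580 CPM in the 4 libraries. Of the 6831 Mll3/4-labelled cells all but 7 lay in 5 clusters that held 3 cells of the other libraries, so the values below compare different clusters of 1 class. The B220 antibody was above its control threshold on 95.5%, 83.7%, 88.3% and 14.8% of the class in that order, and the median UMIs per cell of the class were 3996.5, 3475, 1950 and 9936. Of the 10 genes, Bcl2 alone was among the variable genes used for clustering. A level is the summed UMI count of a gene in a class divided by all UMIs of that class in the library, in CPM. Intervals are exact 95% intervals that cover counting error only, except where a normal approximation is named below. With 1 library a group no test between conditions exists, and each comparison below is between libraries that share the same control library. A gene was counted as higher or lower where the ratio of CPM + 1 was at least 1.5-fold and either library held at least 20 counts of it.

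In B-cell progenitor-like cells of the Mll3/4-labelled library, Bcl2l1, Bcl2l11 and Bbc3 were higher than in control, and Mcl1 and Bid were lower. Of the anti-apoptotic genes 1 was higher and 1 lower, of the BH3-only genes 2 were higher and 1 lower, and of the effectors 0 passed 1.5-fold. All 10 members had enough counts, and 5 of 10 passed 1.5-fold, where 32.9% of the 13469 genes with enough counts did. The 3 members counted as higher compare with 17.9% of all genes, and the 2 counted as lower with 15.0%, so the count alone does not set the family apart. The median log2 ratio of the 10 members was -0.18, and that of all genes was 0.01.

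Among the anti-apoptotic genes, Bcl2l1 stood at 25.1 (control), 23.4 (Mll3-labelled), 29.7 (Mll4-labelled) and 61.0 CPM (Mll3/4-labelled). The Mll3/4-labelled value, from 4631 counts, lay above the intervals of the other 3 libraries, and its log2 ratio to control was 1.25 (0.94 to 1.58). The Bcl2l1 gene is at chr2:152780668-152831728 on the minus strand (GRCm38). Mcl1, whose protein is short-lived, stood at 199, 198, 229 and 129 CPM in the same order of libraries. The Mll3/4-labelled library was the low one, with a log2 ratio of -0.63 (-0.74 to -0.51), which TMM scaling, a correction for the bulk shift between libraries, took to -0.50 and so short of 1.5-fold. The Mcl1 gene is at chr3:95658788-95663176 on the plus strand. Bcl2 stood at 20.5, 15.3, 56.7 and 13.7 CPM. Its Mll3/4-labelled ratio of -0.55 (-0.88 to -0.19) did not reach 1.5-fold, and the Mll4-labelled library, with 21 counts, was the high one. Set against the Mll3-labelled library, the Mll3/4-labelled cells again had more Bcl2l1 (log2 ratio 1.35, 1.04 to 1.68) and less Mcl1 (-0.62, -0.73 to -0.50), while for Bcl2 the interval held 0 (-0.15, -0.52 to 0.25). Without a mature B-like cluster that held 237 of the Mll3-labelled cells, described below, the Bcl2l1 ratio was 1.36, the Mcl1 ratio was -0.36 (-0.49 to -0.22), short of 1.5-fold, and the Bcl2 ratio was 0.37 with an interval that held 0.

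The effectors differed less from control. Bax stood at 153, 141, 113 and 187 CPM in control and the Mll3-, Mll4- and Mll3/4-labelled libraries, and the ratio of the last to control was 0.29 (0.16 to 0.42). Bak1 stood at 36.7, 41.0, 59.4 and 24.2 CPM, and its ratio of -0.58 (-0.84 to -0.32) lay just short of 1.5-fold. Bax and Bak1, which can replace each other in many cells, thus had ratios of opposite sign in the Mll3/4-labelled library.

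Of the BH3-only genes, Bbc3 differed most. It stood at 3.06, 2.31, 16.2 and 16.3 CPM in the same order of libraries, from 10, 8, 6 and 1238 counts. The Mll3/4-labelled ratio was 2.09 (1.28 to 3.11), and the 6 Mll4-labelled counts were too few for a call. Bcl2l11 stood at 21.4, 21.7, 45.9 and 37.1 CPM, with a Mll3/4-labelled ratio of 0.77 (0.43 to 1.12). Bid, which caspase-8 cleaves to link death receptors to mitochondria, stood at 26.9, 21.1, 40.5 and 11.5 CPM, and the Mll3/4-labelled library was the lowest with a ratio of -1.16 (-1.44 to -0.85). The Bbc3 gene is at chr7:16308393-16318205 and Bcl2l11 at chr2:128126038-128162547, both on the plus strand, and Bid is at chr6:120891930-120916853 on the minus strand. Bad, which growth factor signals hold inactive, stood at 39.2, 36.4, 45.9 and 44.9 CPM, and no library differed by 1.5-fold. Pmaip1 was at the limit of detection, with 5, 2, 0 and 53 counts. The plot of B-cell ratios shows these 10 genes for the 3 libraries.

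**Figure D1:**
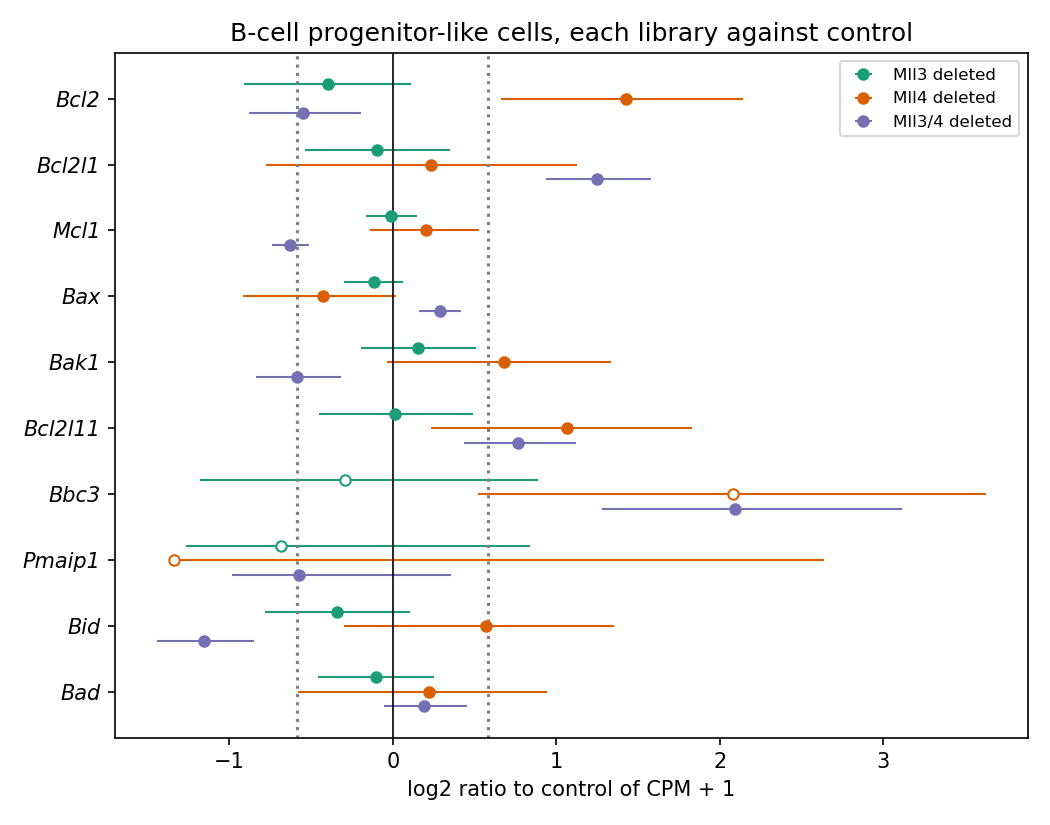
Log2 ratio to control of CPM + 1 for each member in B-cell progenitor-like cells (horizontal axis), with 95% intervals for counting error; filled points had at least 20 counts in either library and dotted lines mark 1.5-fold. The Mll3/4-labelled points of Bcl2l1 (1.25), Bcl2l11 (0.77) and Bbc3 (2.09) lie right of the line, and those of Mcl1 (-0.63) and Bid (-1.16) left of it.

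The single-deletion libraries were closer to control or held few counts. In the Mll3-labelled library 0 of 8 members with enough counts passed 1.5-fold in B-cell progenitor-like cells, where 10.5% of 9179 genes did. That class included 237 cells of a mature B-like cluster led by Igkc and Ms4a1, of which control had 39. Without it, Bcl2 stood at 10.4 CPM against 20.2 in control, a ratio of -0.89 (-1.495 to -0.29), and was the 1 of 8 members past 1.5-fold, where 10.4% of all genes were and 8.35% were lower. In the mature B-like cluster of the Mll3-labelled library Bcl2 stood at 39.8 CPM and Mcl1 at 362 CPM, higher than in its progenitor clusters, where Bcl2 stood at 6.29 and 12.97 CPM and Mcl1 at 208 and 138 CPM. In the Mll3/4-labelled comparison, leaving this cluster out kept the 3 higher genes and gave 4 lower ones, Mcl1, Bid, Bak1 (-0.59) and Pmaip1 (-0.60), where 33.3% of all genes passed, 18.4% higher and 14.9% lower.

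In the Mll4-labelled library 3 of 8 members were higher in B-cell progenitor-like cells, where 39.0% of 8819 genes passed 1.5-fold and 22.2% were higher. They were Bcl2 (1.42, 0.66 to 2.14), Bak1 (0.68, -0.03 to 1.33) and Bcl2l11 (1.06, 0.23 to 1.83), from 21, 22 and 17 counts. Without the mature B-like cluster Bid (0.61) was added, giving 4 of 8, where 39.4% of all genes passed and 22.7% were higher. Neutrophil markers summed to 2560, 2461, 6449 and 81.9 CPM in this class in control and the Mll3-, Mll4- and Mll3/4-labelled libraries. Of the 10 neutrophil markers 9 had counts in the first 3 of these, with Mmp8 at 0, and all 10 had counts in the Mll3/4-labelled library. Their part in the ratios was not tested.

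In B-cell progenitor-like cells the Mll3/4-labelled ratio was set against the sum of the single ratios. For Bcl2, Bcl2l1, Mcl1, Bax, Bak1 and Bid the interval of the difference excluded 0. The intervals of these differences are a normal approximation of counting error, not exact, and are rough at low counts. The difference was 1.11 (0.15 to 2.07) for Bcl2l1 and 0.84 (0.36 to 1.31) for Bax on the log2 scale. It was -1.57 (-2.39 to -0.76) for Bcl2, -0.82 (-1.16 to -0.47) for Mcl1, -1.42 (-2.12 to -0.72) for Bak1 and -1.39 (-2.25 to -0.52) for Bid. For Bcl2l11 (-0.31, -1.15 to 0.52), Bbc3 (0.30, -1.47 to 2.08) and Bad (0.07, -0.70 to 0.85) the interval held 0. The Mll4-labelled counts behind these sums ran from 6 for Bbc3 to 85 for Mcl1. TMM scaling moved the Mll3/4-, Mll3- and Mll4-labelled ratios of this class by 0.12, 0.06 and -0.23, and was not applied to these differences. The differences were not computed over all genes, so they do not set the family apart.

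Across the 5 clusters of the Mll3/4-labelled B-cell progenitor-like cells, Bcl2l1 ran from 49.8 to 73.3 CPM, and even its lowest cluster exceeded the 23.1 and 25.6 CPM of the control progenitor clusters. Bbc3 ran from 13.5 to 21.7 CPM, against 5.58 and 1.04 CPM in the control clusters. Bid ran from 7.07 to 14.8 CPM, against 35.1 and 21.9 CPM. For these 3 genes the CPM values of the control clusters and the Mll3/4-labelled clusters did not overlap. The share of all genes for which that held was not computed, so it does not set these genes apart. Mcl1 varied more, from 63.0 to 156 CPM, and its highest cluster came near the lower control cluster at 164 CPM. Bcl2l11 ran from 20.6 to 60.3 CPM and overlapped the control clusters at 29.5 and 17.2 CPM.

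Cell cycle transcripts also differed. In summed counts, of 18 G2/M genes 0 were higher and 11 lower in the Mll3/4-labelled B-cell progenitor-like cells, with a median log2 ratio of -0.64, and of 18 S phase genes 1 was higher and 9 lower. Per cell the order was the other way, with a median share of UMIs from both lists of 0.196% (Mll3/4-labelled) against 0.137% (control). The class was split at this control median, which left 4015 of the 6831 Mll3/4-labelled cells at or over it. The cells under it were shallower in control, with a median of 3267 UMIs against 8946.5. In control, Mcl1 stood at 277 CPM under and 170 CPM over this share, Bid at 41.2 and 21.5 CPM, and Bbc3 at 8.90 and 0.844 CPM (8 and 2 counts). The Mll3-labelled library had the same direction for Mcl1 (327 and 168 CPM), Bcl2l11 (41.7 and 17.1 CPM) and Bbc3 (7.72 and 1.07 CPM, 5 and 3 counts). For Bid (21.6 and 20.96 CPM) the interval of the difference held 0. These Mll3-labelled cells include the mature B-like cluster. Without it Mcl1 stood at 238 and 153 CPM and Bcl2l11 at 43.2 and 18.6 CPM. Bbc3 then had 2 and 2 counts, with an interval that held 0. In the Mll3/4-labelled library the 2 sides lay closer, with Mcl1 at 143 and 122 CPM and Bbc3 at 19.1 and 14.9 CPM, while Bcl2 had 10.6 CPM under and 15.2 CPM over it. Against control, the Mll3/4-labelled ratio of Bbc3 was 1.02 under the share and 3.11 over it. Bcl2l11 was within 1.5-fold under it (0.48), and Mcl1 was within 1.5-fold over it (-0.48, against -0.95 under it). In the Mll4-labelled library 36 cells lay under it and were not compared.

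**Figure D2:**
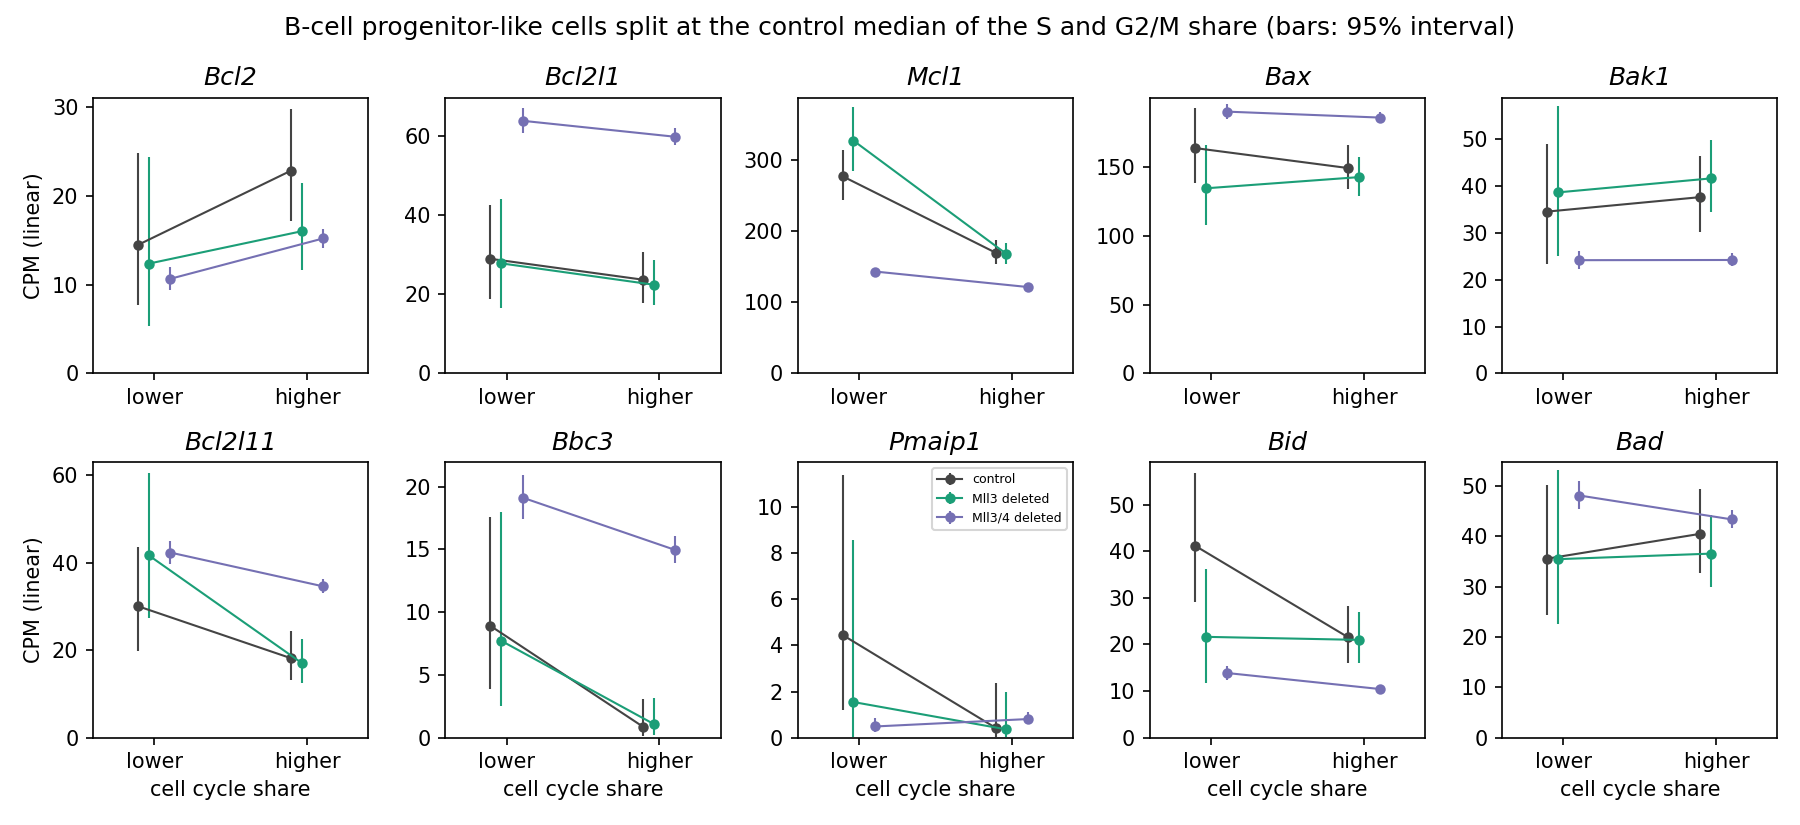
CPM (linear axes from 0) of each member in B-cell progenitor-like cells with a lower or higher share of S and G2/M transcripts, split at the control median, with exact Poisson 95% intervals. Bcl2l1 of the Mll3/4-labelled library lies above the other libraries on both sides, while control Mcl1 goes from 277 to 170 CPM and control Bbc3 from 8.90 to 0.844 CPM.

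Each library carried 2 hashtag antibodies, whose meaning the labels do not give, so the subsets they mark are not replicates. In Mll3/4-labelled B-cell progenitor-like cells the hashtag subsets held 57.9 and 64.5 CPM of Bcl2l1, 18.4 and 14.0 CPM of Bbc3, 39.6 and 33.9 CPM of Bcl2l11, and 11.6 and 11.3 CPM of Bid. The control subsets held 27.7 and 23.7 CPM of Bcl2l1, 2.13 and 3.30 CPM of Bbc3, 26.3 and 18.2 CPM of Bcl2l11, and 33.4 and 22.0 CPM of Bid. In none of these 4 genes did the CPM values of the Mll3/4-labelled subsets overlap those of the control subsets. This compares the values and not their intervals, and the share of all genes for which it held was not computed. Comparisons of the 2 subsets over members, classes and libraries were limited to the 188 with at least 20 counts in either subset. Their median difference was 0.13 on the log2 scale, 6 passed 1.5-fold, and in 24 the interval excluded 0.

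Bcl2l11 and Bbc3, which were higher together in the Mll3/4-labelled B-cell progenitor-like cells, are known targets of FOXO transcription factors, and Foxo1 itself stood at 476 CPM there against 121 CPM in control (log2 ratio 1.97, 1.83 to 2.12). A promoter window of each is shown because it holds the FOXO core GTAAACA, which was searched on both strands after these values were seen. The windows of these 2 genes at their other RefSeq starts did not hold it. The windows run from 250 bases before to 50 bases after a RefSeq gene start (GRCm38.p6), and the capitals mark the match, which begins 227 bases before the start in Bcl2l11 and, on the opposite strand, 167 bases before it in Bbc3.
Bcl2l11, chr2:128125788-128126087, plus strand: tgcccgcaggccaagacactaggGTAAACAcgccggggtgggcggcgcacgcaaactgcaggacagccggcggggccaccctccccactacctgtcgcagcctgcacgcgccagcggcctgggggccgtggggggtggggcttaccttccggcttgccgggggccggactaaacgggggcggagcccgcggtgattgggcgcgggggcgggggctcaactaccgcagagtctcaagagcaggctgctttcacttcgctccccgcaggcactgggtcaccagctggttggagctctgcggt
Bbc3, chr7:16310011-16310310, plus strand: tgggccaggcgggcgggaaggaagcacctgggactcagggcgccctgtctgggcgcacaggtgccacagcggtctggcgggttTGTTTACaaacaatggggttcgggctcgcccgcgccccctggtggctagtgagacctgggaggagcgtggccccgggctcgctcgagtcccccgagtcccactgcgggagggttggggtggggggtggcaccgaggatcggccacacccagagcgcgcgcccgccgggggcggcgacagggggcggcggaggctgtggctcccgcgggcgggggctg
Of the 15 windows of the 9 members in the table, these 2 held the core, as did 3.65% of all 32851 windows of that length. The core of the STAT motif, TTCNNNGAA on either strand, was in 0 of the 15 windows and in 8.30% of all. A match describes these letters and says nothing of binding, and the part of Foxo1 in either gene was not tested.

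Other genes of the pathway were read from 6 lists, whose counts stand beside the 17.9% of all genes that were higher and the 15.0% that were lower in this comparison. Of 15 other Bcl2 family genes 9 had enough counts in the Mll3/4-labelled comparison of B-cell progenitor-like cells, and 3 were higher: Bmf (43.2 against 10.4 CPM), Bik (10.3 against 1.22 CPM, 4 control counts) and Bcl2l15 (74 counts against 0). The Bcl2l15 counts came from 75896480 UMIs (Mll3/4-labelled) and 3267686 UMIs (control), so this gene lay near the limit of detection. Bmf and Bik encode further BH3-only proteins. Bok, a relative of Bax and Bak1, was lower at 17.4 against 53.9 CPM. Of 15 genes of the apoptosome and caspases 0 were higher, and Parp1, a DNA repair enzyme that caspases cleave, was lower (118 against 336 CPM). Of 6 measured inhibitors of apoptosis 0 were higher and 3 lower, among them Birc3 (5.63 against 19.0 CPM) and the mitotic gene Birc5 (190.3 against 400 CPM).

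Of 11 measured death receptor genes 1 was higher, Tnfrsf1a (18.0 against 7.35 CPM), and 4 were lower, among them Tnfsf10, which encodes the ligand TRAIL (11.5 against 56.0 CPM). Of 13 measured genes of the p53 axis 6 were higher and 1 lower, with a median log2 ratio of 0.53 beside 0.01 over all genes. Zmat3 stood at 16.1 against 2.14 CPM and Phlda3 at 24.1 against 4.90 CPM. The p53 gene itself was within 1.5-fold (161 against 141 CPM), as were Cdkn1a (32.4 against 48.4 CPM) and Mdm2 (37.1 against 33.7 CPM). Of 20 upstream survival genes 7 were higher and 4 lower, against the same 17.9% and 15.0% of all genes. Il7r, which encodes the receptor for the cytokine that keeps B-cell progenitors alive, stood at 703 against 262 CPM, while Stat5a (9.51 against 20.8 CPM), Jak3 (2.82 against 11.9 CPM) and Pim1 (54.4 against 122 CPM) of its signalling path were lower.

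HSC/MPP-like cells are the class of stem and multipotent progenitor cells. Among the 9 members with enough counts there, Bcl2 (chr1:106538178-106714274, minus strand) had the largest Mll4-labelled ratio. It stood at 89.2 CPM in control (1319 cells), 90.1 CPM in the Mll3-labelled library (966 cells) and 182 CPM in the Mll4-labelled library (243 cells), a log2 ratio of 1.02 (0.84 to 1.19) for the last. It was the 1 of 9 members past 1.5-fold, where 30.3% of 11837 genes were and 19.0% were higher. Mcl1 stood at 133, 118 and 170.0 CPM and Bax at 110.2, 109 and 74.3 CPM, so that Mcl1 (0.35, 0.17 to 0.53) was highest and Bax (-0.56, -0.83 to -0.31) lowest in the Mll4-labelled library without reaching 1.5-fold. Bcl2l1, at 10.1, 9.26 and 7.13 CPM, had intervals that overlapped. Pmaip1 stood at 0.819, 0.480 and 4.16 CPM, from 16, 7 and 7 counts, too few for a call. Its control and Mll4-labelled intervals did not overlap. In the Mll3-labelled library 0 of 9 members passed, where 4.78% of 11930 genes did, and the ratio farthest from 0 was that of Bcl2l11 (14.3 and 10.0 CPM, -0.48, -0.75 to -0.21).

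The Mll4-labelled HSC/MPP-like cells lay mostly in another cluster than those of control. Of 2 HSC/MPP-like clusters, the one with more G2/M transcripts held 293 of the control cells and 162 of the Mll4-labelled cells, and 16 of 18 G2/M genes were higher over the class. Within that cluster Bcl2 stood at 104 (control) and 198 CPM (Mll4-labelled). Within the other cluster it stood at 81.7 and 123 CPM (45 counts). In HSC/MPP-like cells at or over the control median of the cycle share Bcl2 stood at 95.4 and 191 CPM, a ratio of 0.99. Under it lay 45 Mll4-labelled cells, which were not compared. Neutrophil markers summed to 3004 CPM (Mll4-labelled, 9 of 10 with counts, Mmp8 at 0), 1002 CPM (Mll3-labelled) and 1230 CPM (control) in this class, and their part in the ratio was not tested.

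Bcl2 and Bcl2l1 differed in opposite directions between the CD150+CD48- and CD150-CD48+ gates of HSC/MPP-like cells, but not over all gates. CD150 and CD48 are surface proteins whose pattern, CD150 present and CD48 absent, marks the fraction richest in long-term stem cells. In CD150+CD48- cells of control (214 cells) Bcl2 stood at 50.5 CPM, and in CD150-CD48+ cells (870 cells) at 102 CPM, a log2 difference of -1.01 (-1.27 to -0.75). In the Mll3-labelled library the values were 62.9 and 105 CPM (-0.73, -0.97 to -0.50). Bcl2l1 had 17.2 and 8.36 CPM in control (0.96, 0.46 to 1.45) and 14.1 and 8.01 CPM in the Mll3-labelled library (0.74, 0.19 to 1.30). Bcl2l11 was the lower in CD150+CD48- cells of control (8.21 and 15.6 CPM), and Mcl1 differed little (151 and 127 CPM). Between these gates both libraries thus showed the same signs for these 4 genes. In CD150-CD48- cells Bcl2 stood at 47.5 CPM (control) and 64.1 CPM (Mll3-labelled), and Bcl2l1 at 7.68 and 7.96 CPM. The opposition of the 2 genes thus did not extend to that gate. In control CD150+CD48+ cells Bcl2 stood at 72.3 CPM and Bcl2l1 at 16.1 CPM. Of the Mll4-labelled gates only CD150-CD48+ held at least 50 cells, and Bcl2 stood at 209 CPM there.

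**Figure D3:**
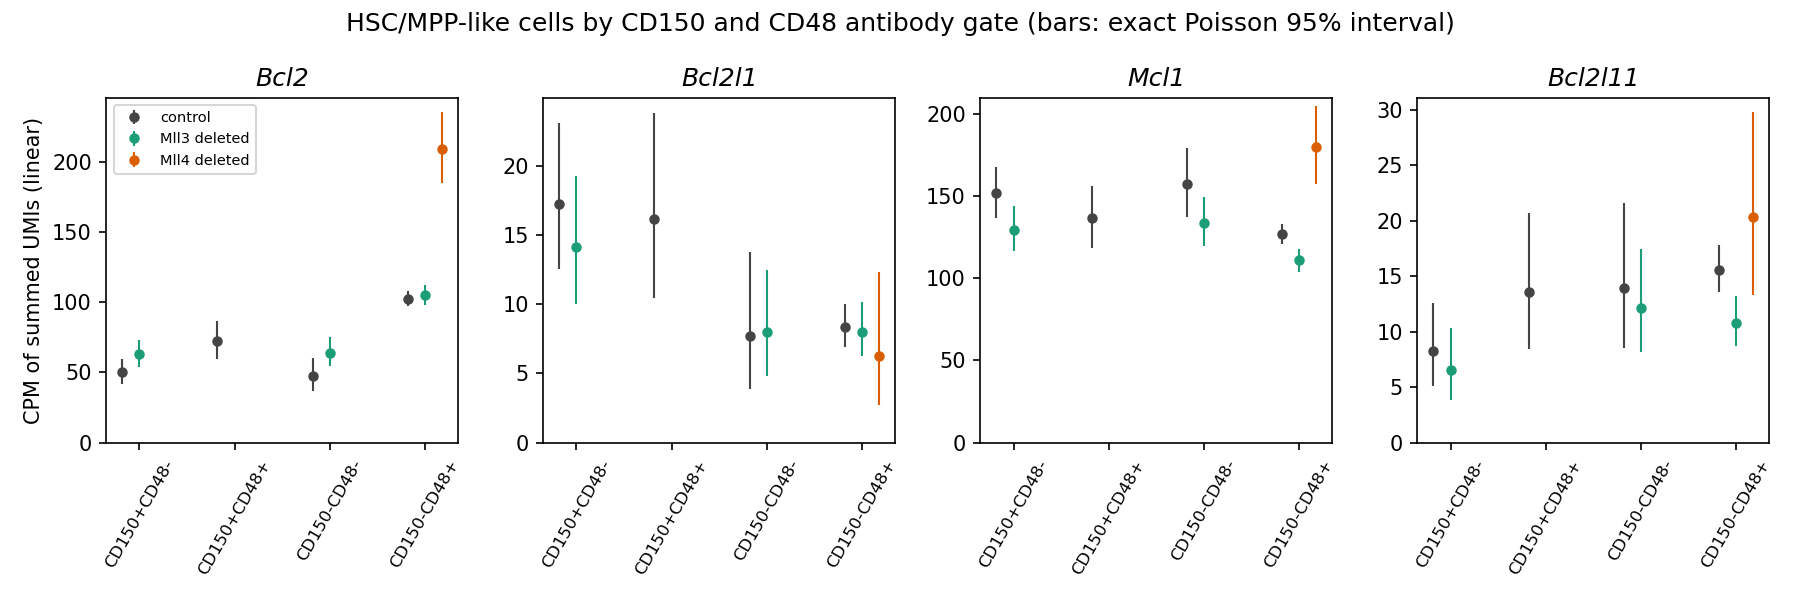
CPM (linear axes from 0) of 4 members in HSC/MPP-like cells gated on the CD150 and CD48 antibodies at control thresholds, with exact Poisson 95% intervals; gates under 50 cells are left out. Control Bcl2 is 50.5 CPM in CD150+CD48- and 102 CPM in CD150-CD48+ cells, and Bcl2l1 is 17.2 and 8.36 CPM.

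Levels over the 9 control classes differed most for Bcl2. It was highest in the 50 T/NK/innate lymphoid-like cells (622 CPM, 536 to 718), then megakaryocyte-like (104 CPM), monocyte/macrophage progenitor-like (102 CPM) and HSC/MPP-like cells (89.2 CPM), and lowest in erythroid progenitor-like (11.8 CPM) and neutrophil-like cells (5.88 CPM). Megakaryocyte-like and monocyte/macrophage progenitor-like cells did not differ beyond counting error. Bcl2l1 was highest in B-cell progenitor-like (25.1 CPM) and megakaryocyte-like cells (19.5 CPM), whose intervals overlapped, and lowest in erythroid progenitor-like cells (3.85 CPM). Mcl1 had a narrow range, from 94.4 CPM in granulocyte progenitor-like to 249.6 CPM in T/NK/innate lymphoid-like cells.

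Bax ran from 28.1 CPM in neutrophil-like to 220 CPM in erythroid progenitor-like cells, and Bak1 had the same lowest and highest class (30.6 and 60.7 CPM). Bcl2l11 was highest in T/NK/innate lymphoid-like cells (106.5 CPM), followed by B-cell progenitor-like cells (21.4 CPM), and stood at 5.99 to 14.3 CPM in the other 7 classes. Bid was highest in monocyte/macrophage progenitor-like cells (63.7 CPM) and lowest in T/NK/innate lymphoid-like cells (9.98 CPM). Bbc3 ran from 1.59 CPM in neutrophil-like to 19.96 CPM in T/NK/innate lymphoid-like cells (6 counts in the latter), and stood at 16.0 CPM in megakaryocyte-like cells. Bad kept between 29.7 and 48.1 CPM, and Pmaip1 did not exceed 3.33 CPM. The plot of levels by class shows every class and library with at least 50 cells.

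**Figure D4:**
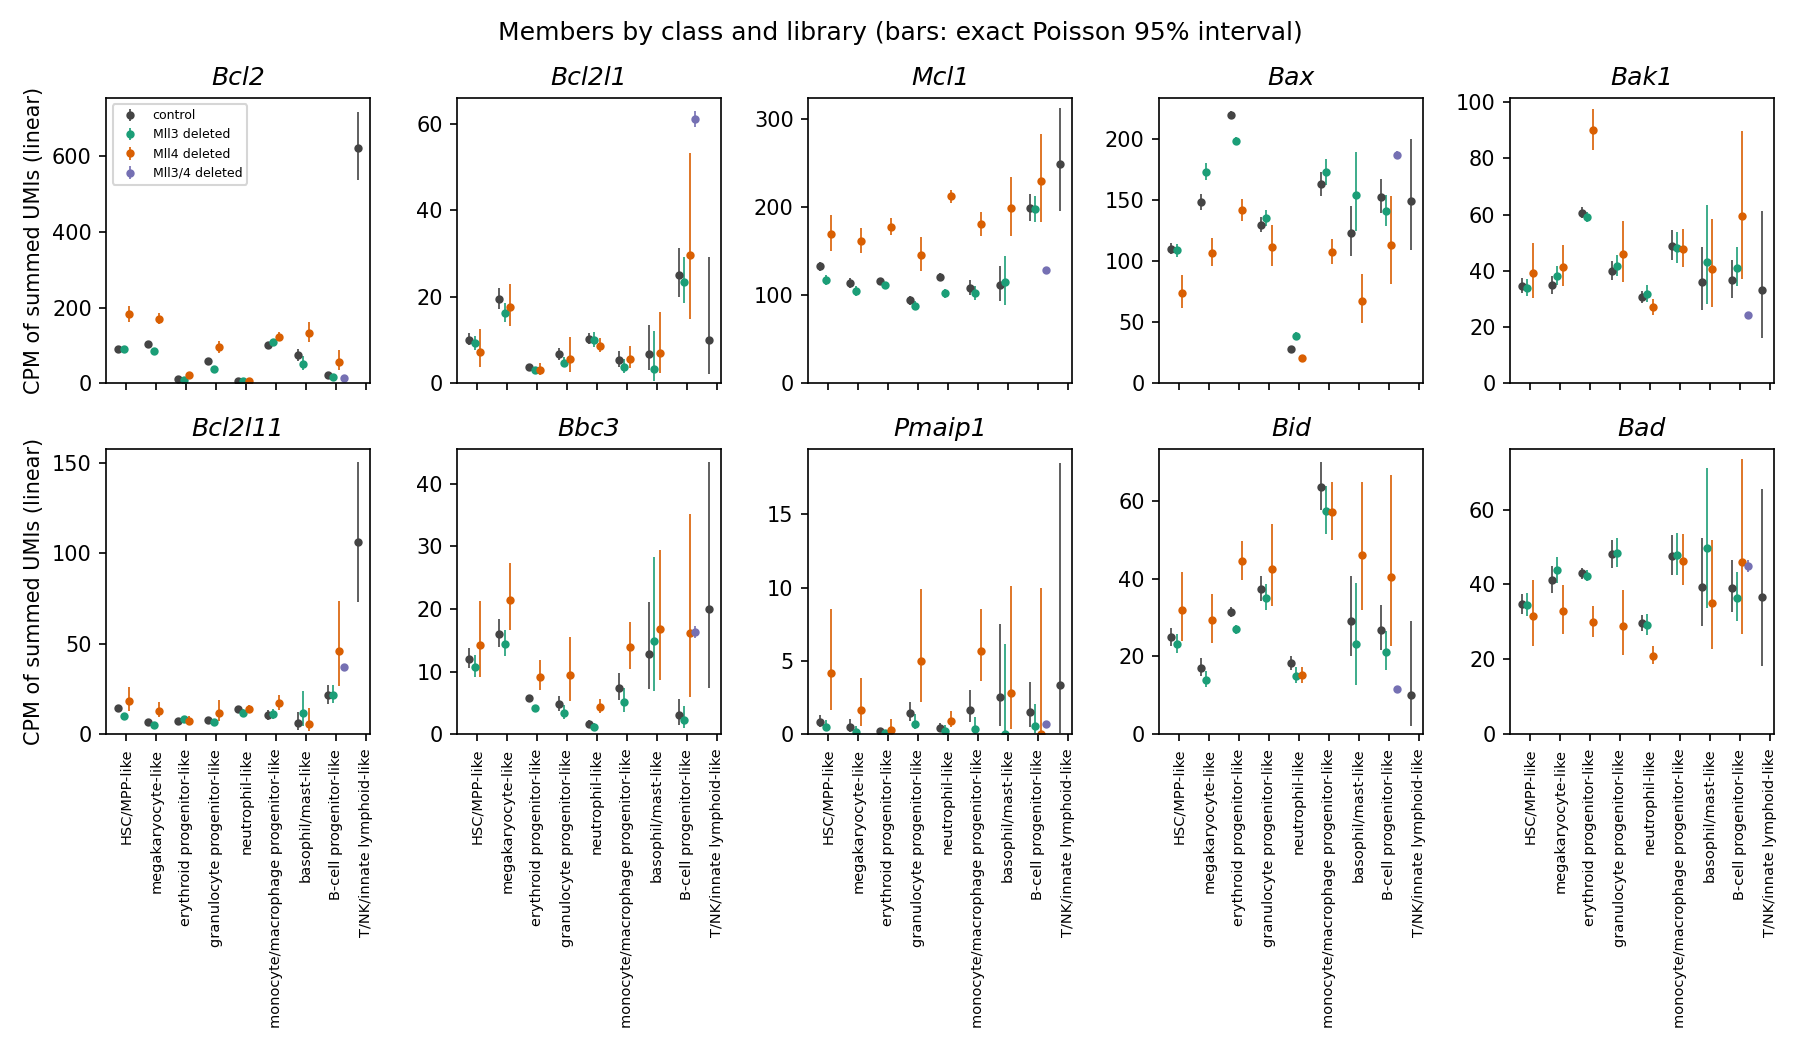
CPM of summed UMIs (linear axes from 0, a scale per gene) for the 10 members in each class and library with at least 50 cells, with exact Poisson 95% intervals. Control Bcl2 spans 5.88 CPM in neutrophil-like to 622 CPM in T/NK/innate lymphoid-like cells, and Bcl2l1 is highest in Mll3/4-labelled B-cell progenitor-like cells at 61.0 CPM.

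Between the Mll4-labelled library and control the member past 1.5-fold in most classes was Bcl2, followed by Mcl1, but these counts depend on the scaling. Over the 8 classes with enough cells, B-cell and HSC/MPP-like included, Bcl2 was higher in 6, Mcl1 in 5 and Bbc3 in 4 of 6 with enough counts, and Bax was lower in 3. With TMM scaling, described below, Bcl2 was higher in 2 of the 8, Mcl1 in 1 and Bbc3 in 3 of 6, and Bax was lower in 6. Pmaip1 was higher in 2 of 2 classes with enough counts, with and without TMM scaling. These were granulocyte and monocyte/macrophage progenitor-like cells, with 8 and 23 Mll4-labelled counts of it. These classes come from the same 2 libraries and are not independent. In monocyte/macrophage progenitor-like cells the 2 hashtag subsets held 1.72 and 11.3 CPM of Pmaip1 (Mll4-labelled), against 0.915 and 2.51 CPM (control). There the first Mll4-labelled subset lay within the range of the control subsets. In granulocyte progenitor-like cells the subsets held 3.86 and 8.0 CPM of Pmaip1 (Mll4-labelled), against 1.04 and 1.90 CPM (control). In megakaryocyte-like cells 3 of 9 members were higher and 0 lower, where 27.7% of all genes passed 1.5-fold and 19.6% were higher. In erythroid progenitor-like cells 3 of 9 were higher and 1 lower (all genes 21.7%, 17.0% higher and 4.71% lower), and in granulocyte progenitor-like cells 4 of 10 were higher and 1 lower (32.7%, 23.1% and 9.51%). In neutrophil-like cells 2 of 9 were higher (21.1%, of which 11.9% higher). In monocyte/macrophage progenitor-like cells 4 of 10 were higher and 1 lower (31.9%, 23.9% and 7.92%), and in basophil/mast-like cells 3 of 6 were higher and 1 lower (38.4%, 26.2% and 12.2%). These shares lie near or above those of all genes, and the counts of members are small.

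Bcl2 stood at 170 against 104 CPM in megakaryocyte-like cells (0.70), 21.9 against 11.8 CPM in erythroid progenitor-like cells (0.84), 95.3 against 58.0 CPM in granulocyte progenitor-like cells (0.71) and 133 against 73.6 CPM in basophil/mast-like cells (0.85). In neutrophil-like cells its intervals overlapped (5.56 and 5.88 CPM), and in monocyte/macrophage progenitor-like cells the ratio was 0.27 (0.10 to 0.44). Mcl1 was highest in the Mll4-labelled library in all 8 classes, with 212 against 121 CPM in neutrophil-like cells (0.81, 0.74 to 0.88) and 181 against 109 CPM in monocyte/macrophage progenitor-like cells (0.73, 0.58 to 0.88), though in B-cell progenitor-like cells the interval held 0. Bax was lowest in that library in all 8 classes, with intervals that held 0 in granulocyte and B-cell progenitor-like cells, with 142 against 220 CPM in erythroid progenitor-like cells (-0.63, -0.73 to -0.54). In neutrophil-like cells the 2 libraries filled different clusters. Mcl1 stood at 109 and 145 CPM in the main control clusters and at 190 and 308 CPM in the main Mll4-labelled clusters. These values did not overlap, and the share of all genes for which that held was not computed.

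Scaling bears on the Mll4-labelled values. TMM scaling moved all Mll4-labelled log2 ratios down by 0.09 in neutrophil-like cells and by 0.21 to 0.28 in the other classes. After it the Bcl2 ratio passed 1.5-fold in HSC/MPP-like (0.80) and B-cell progenitor-like cells (1.19) and was 0.02 to 0.58 in the other classes but neutrophil-like cells (-0.15). Mcl1 passed it in neutrophil-like cells alone of the 8 (0.72). Mcl1 was at 0.35 in erythroid progenitor-like and, with its sign turned, -0.04 in B-cell progenitor-like cells. Bax in erythroid progenitor-like cells went to -0.90.

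In the Mll3-labelled library Bcl2 was the one member past 1.5-fold, and it was lower: 7.08 against 11.8 CPM in erythroid progenitor-like cells (-0.66, -0.80 to -0.52) and 38.2 against 58.0 CPM in granulocyte progenitor-like cells (-0.59, -0.75 to -0.43). These were 1 of 9 and 1 of 10 members, where 3.35% and 5.13% of all genes passed and 2.61% and 3.91% were lower. Both calls were close to 1.5-fold, and they were kept under 9 and 5 of 15 alternatives. In megakaryocyte-like, neutrophil-like, monocyte/macrophage progenitor-like and basophil/mast-like cells 0 members passed, where 6.32%, 3.77%, 5.35% and 15.4% of all genes did. Bcl2 in erythroid progenitor-like cells thus had the order Mll3-labelled, control, Mll4-labelled at 7.08, 11.8 and 21.9 CPM, with intervals that did not overlap. In that order, a cluster led by Apoe and Csrp3 held 450 of 1659, 534 of 1697 and 198 of 518 cells of the class. A cluster led by C1qtnf12 and Rhd held 840, 740 and 234. The part of this mix in the Bcl2 levels was not tested. The plot of ratios by class sets both libraries side by side.

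**Figure D5:**
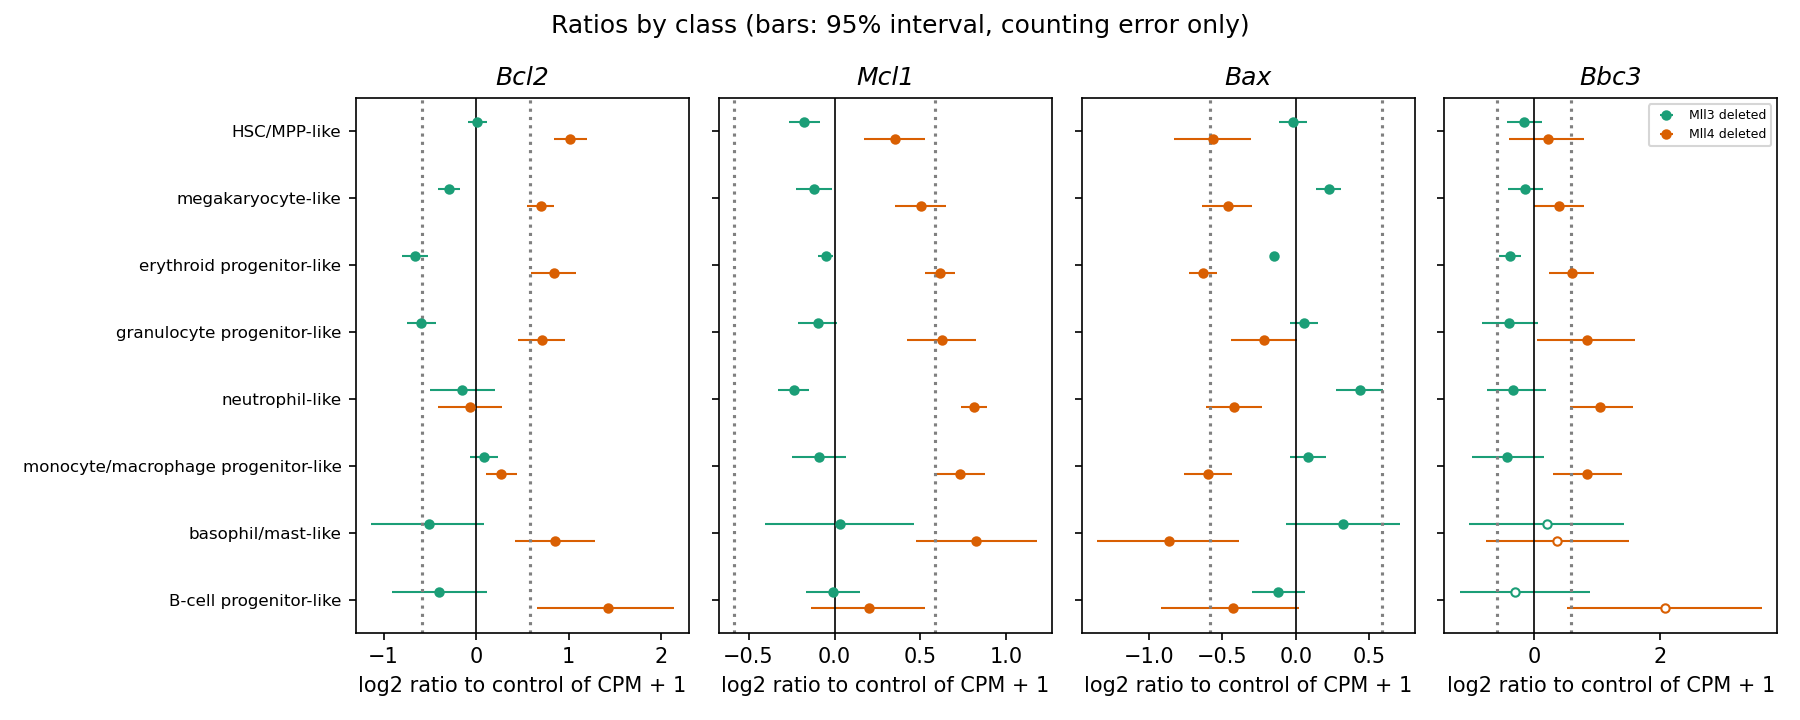
Log2 ratio to control of CPM + 1 for Bcl2, Mcl1, Bax and Bbc3 by class in the Mll3- and Mll4-labelled libraries, with 95% intervals for counting error; dotted lines mark 1.5-fold and open points had under 20 counts in both libraries. The Mll4-labelled Bcl2 ratio is 1.02 in HSC/MPP-like and 0.84 in erythroid progenitor-like cells, and the Mll3-labelled one is -0.66 in the latter.

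The genes whose levels were most like those of 4 members were ranked by Pearson's r of log2(CPM + 1) over 26 sums of a class in a library, among 6001 genes. The sums share libraries and depth, so r is a description. For Bcl2 they were Arl6ip5 (0.913), Psme1 (0.889) and Nfkb1 (0.876). For Bcl2l1 they were Prkd2 (0.841), Rock2 (0.831) and N4bp2 (0.83). For Mcl1 they were Ube2d2a (0.878), Nr1h2 (0.87) and Ccnl2 (0.856), and for Bcl2l11 Tmem108 (0.834), Ccm2 (0.811) and Klf2 (0.795).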

How the data were processed

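The data are 4 single-cell libraries with antibody barcodes (10x 3′ chemistry version 3.1, per the labels), 1 per group. The authors deposited raw UMI counts for 32285 genes and 15 antibodies, made with Cell Ranger 6.1.2 on mm10, per the submitters' processing notes. Barcodes with at least 500 genes, 1000 gene UMIs and at most 10% mitochondrial UMIs were kept. Doublets were removed by Scrublet score at 0.8% per 1000 barcodes. Cells of all libraries were clustered together in scanpy 1.11.5 (2000 variable genes, 30 components, 15 neighbours, Leiden resolution 1), and clusters were named from marker lists. Counts were not corrected for free RNA. Counts were summed by class and library, for classes of at least 50 cells in both libraries, with a pseudocount of 1 CPM in ratios. Antibody thresholds came from a mixture fit in control. TMM factors came from edgeR 4.0.16. The ratio and its interval were tested on simulated data. Gene positions are from GENCODE (GRCm38), where all 10 members were found. Promoters are from RefSeq. The members, gene lists, markers and alternatives were chosen with earlier results of these data known. Named were all 10 members, and of each other list at most the 3 largest ratios past 1.5-fold in each direction; Trp53, Cdkn1a and Mdm2 were added after their values were seen, and 1 gene of these lists is not reported here. No library is replicated, so no p-value is given.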

Additional observations from a re-analysis of the deposited data

How the results depend on the processing

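No paired analysis was possible because each group has 1 library and the results come from no test. Of 34 member ratios past 1.5-fold, 9 stayed past it the same way under every alternative run for them. In B-cell progenitor-like cells of the Mll3/4-labelled library Bcl2l1 (1.04 to 1.498), Bbc3 (1.02 to 3.11) and Bid (-1.505 to -0.90) did so under 19 alternatives, Bcl2l11 under 17 (0.48 with fewest cycle transcripts) and Mcl1 under 13 (-0.45 with the class taken from B220, -0.50 with TMM scaling). The count of 5 members there was 3 at 2-fold. In the Mll4-labelled B-cell progenitor-like cells 3 members became 1 with a minimum of 100 counts and 5 with no minimum. Bcl2l11 there reversed to -0.35 when cells were thinned. The 3 members also became 5 with B220, a setting that took all kept B220-positive cells whatever their class. Of those 253 Mll4-labelled cells 136 were B-cell progenitor-like. In HSC/MPP-like cells the 1 Mll4-labelled member became 3 with TMM scaling, with doublets kept or in cells over the median cycle share, and 2 with no minimum, Leiden resolution 2, another seed or either hashtag. The 0 Mll3-labelled members there became 1 with cells positive for both hashtags removed or clustering without the 10 members. The 0 Mll3-labelled members in B-cell progenitor-like cells became 1 with no minimum, doublets kept, at least 3000 UMIs, thinning, without the Igkc clusters or in cells under the median cycle share, and 2 with the first hashtag. The Mll4-labelled Bbc3 ratio in erythroid progenitor-like cells reversed to -0.005 with cells positive for both hashtags removed and to -0.063 at Leiden resolution 2. Clustering without the members and the split by cycle share of HSC/MPP-like cells were chosen after seeing the data. The cause of these shifts was not tested. Depth limits the Mll4-labelled values, such as Bcl2 in B-cell progenitor-like cells (21 counts).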

Other observations

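In HSC/MPP-like cells of the Mll4-labelled library, genes outside the family also differed from control. Of all genes in this comparison 30.3% of 11837 passed 1.5-fold, 19.0% (2244) higher and the other 1340 lower, and the counts below stand beside these shares. Of 15 genes of the apoptosome and caspases 3 were higher and 0 lower: Aifm1, which encodes the mitochondrial protein AIF (80.2 against 37.1 CPM), Dffb (16.1 against 8.24 CPM) and Apaf1, the scaffold of the apoptosome (26.2 against 16.8 CPM). Of 12 measured genes of the p53 axis 4 were higher and 2 lower, among them Mdm2, which encodes the ligase that degrades p53 (58.8 against 28.4 CPM). Of 10 measured death receptor genes 1 was higher, Ripk3, the kinase of necroptosis (97.5 against 51.6 CPM). The 2 lower ones were Fadd (8.32 against 13.01 CPM) and Tnfrsf10b (0 counts against 31). The Tnfrsf10b counts came from 1682667 UMIs (Mll4-labelled) and 19530116 UMIs (control), so this gene lay near the limit of detection. Of 20 upstream survival genes 2 were higher and 4 lower, and the cytokine-induced genes Cish (2.38 against 11.6 CPM) and Socs2 (10.7 against 24.7 CPM) were among the lower ones.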
